A study of Pleurotus ostreatus with 9 samples.

Results

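Hydrophobins are small secreted fungal proteins that gather at surfaces between water and air and coat hyphae, spores and aerial structures with a water-repellent film. Members of class I share a conserved pattern of cysteines and assemble into very stable films. In the oyster mushroom Pleurotus ostreatus the genes form a large family, and Vmh2 is known as a hydrophobin of the vegetative mycelium that is secreted into liquid cultures.

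The genes described here are 6 of the 25 that the deposited table describes as hydrophobins, among 10682 genes in all. They were listed because 4 of them, PLEOSDRAFT_1091049 (Vmh2), PLEOSDRAFT_1114379 (hydrophobin 3), PLEOSDRAFT_1060612 and PLEOSDRAFT_163649, were lower and 2, PLEOSDRAFT_160070 and PLEOSDRAFT_156845, were higher in cultures with piperonyl butoxide (PB). The members were thus chosen by their FPKM and count differences between the libraries with PB and the others, and these are given below as a description. Members called in the comparisons with PB are counted once, with nothing read from the counts. The comparison of butyl benzyl phthalate (BBP) with control holds no library with PB, and in it the members were tested, although the members were chosen with its results known and it shares libraries with the other comparisons. The rule sets no threshold, so no value lies just inside or outside one.

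The study measured poly(A) RNA of mycelium of 1 strain, GEMB-PO1, in 3 groups of 3 libraries, which the series design calls biological replicates. All cultures were shaken at 28 °C and 180 rpm in a medium of glucose (20 g/L) with yeast extract and peptone (5 g/L each), and were harvested on day 3. The control received no chemical, and no vehicle is named. The BBP group received BBP, a plasticizer, for which the labels conflict: the design text of the series gives 50 mg/L, whereas the protocol of each sample gives 200 mg/L. The third group received that BBP together with 1 mM PB, which inhibits cytochrome P450 enzymes, and is called BBP with PB. Cultures given PB without BBP were not analysed here, so an effect of PB without BBP cannot be read from these data.

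Libraries held between 38098599 and 49161706 counts. Within each group they differed beyond counting error (chi-square of 40.6 to 329 for each degree of freedom), so no library was a copy of another. Scaling factors by the trimmed mean of M values (TMM) ran from 0.982 to 1.13 in the controls, 0.983 to 1.02 with BBP and 0.918 to 0.942 with BBP and PB. They were lowest with BBP and PB, and why they differed was not tested. With library size in their place, the median log2 change of all genes moved by -0.108 in BBP against control. It moved by -0.11 in BBP with PB against BBP and by -0.219 in BBP with PB against control. The change of Vmh2 with BBP was then -3.49, against -3.37 with the factors. FPKM values (fragments scaled by gene length and library total) follow total counts and not these factors. Control replicate 3 and BBP replicate 2 stood apart from their groups in several hydrophobins. For the members, the tests of BBP against control without each of these libraries are given beside the results. In mycelium as a whole, fewer hyphae expressing a gene and less RNA per hypha cannot be told apart. The labelled tissue is mycelium, and the hydrophobin described as specific to the fruit body, PLEOSDRAFT_47325, stayed between 0.132 and 0.613 FPKM in all 9 libraries.

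The summed hydrophobin level was lower in the treated cultures. The summed level of the 25 genes was 1157.5, 1263 and 2004 FPKM in control replicates 1 to 3. It was 473, 359 and 369.7 FPKM with BBP and 99.6, 108.8 and 108.7 FPKM with BBP and PB. The 3 groups did not overlap. The 6 members held 91.0% ± 0.709 (SD, n = 3) of this sum in the controls, 66.7% ± 21.2 with BBP and 42.4% ± 4.68 with BBP and PB. The summed level of the other 19 genes was 133 ± 44.7 FPKM in the controls and 128 ± 69.6 FPKM with BBP, less apart than the spread of either group, and 60.95 ± 6.96 FPKM with BBP and PB. By library it was 110, 103 and 184 FPKM in control replicates 1 to 3 and 99.6, 208 and 77.6 FPKM in BBP replicates 1 to 3. The close means thus rest on BBP replicate 2, which lay above all controls, while BBP replicates 1 and 3 lay below them.

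**Figure D1:**
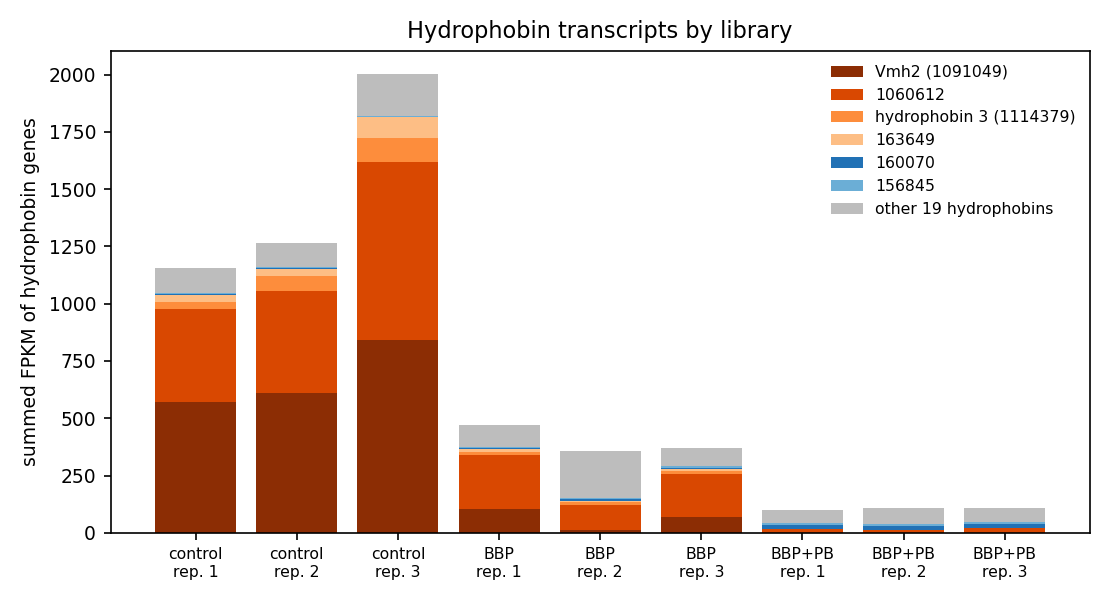
Summed FPKM of the 25 hydrophobin genes in each of the 9 libraries (bars start at 0), with the 6 members in colour and the other 19 genes in grey. Vmh2 and PLEOSDRAFT_1060612 fill most of the control bars, and the bars of the 3 libraries with PB stay between 99.6 and 108.8 FPKM.

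Vmh2 and PLEOSDRAFT_1060612 were the most expressed hydrophobins in the controls, at levels that overlapped between the 2 genes. Vmh2 stood at 569.9, 611 and 843 FPKM in control replicates 1 to 3, which put it between rank 88 and rank 174 among the 9399 tested genes. In BBP replicates 1 to 3 it stood at 102, 10.5 and 68.3 FPKM. With BBP and PB it stood at 0.767, 0 and 0.512 FPKM, from 19, 0 and 11 counts, at rank 9205 or below. The groups did not overlap, and BBP replicate 2 was the low library of its group. Vmh2 fell with BBP (log2 change -3.37 ± 0.697 (SE), adjusted p = 0.0104 by edgeR's quasi-likelihood test, lower in 3 of 3 libraries), with a log2 change of -2.87 (adjusted p = 0.0042) without BBP replicate 2. Without control replicate 3 its log2 change was -3.23 (adjusted p = 0.0153 by edgeR). Its log2 difference between BBP with PB and BBP was -6.96 ± 0.946, a value that rests on few counts with PB.

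PLEOSDRAFT_1060612, described only as a class I hydrophobin, stood at 408, 444 and 774 FPKM in the controls. With BBP it stood at 238, 109.8 and 187 FPKM, and it was then the leading hydrophobin in all 3 BBP libraries. With BBP and PB it stood at 14.4, 10.2 and 19.2 FPKM. No group overlapped another, and control replicate 3 was the high library. The gene fell with BBP (log2 change -1.49 ± 0.324, adjusted p = 0.0131 by edgeR), with a log2 change of -1.19 (adjusted p = 0.0273) without control replicate 3. Without BBP replicate 2 its log2 change was -1.23 (adjusted p = 0.0296 by edgeR). Its log2 difference between BBP with PB and BBP was -3.51 ± 0.353. Its drop from the controls to BBP was 3.04-fold in mean FPKM, against 11.2-fold for Vmh2, a difference between the genes that was not tested.

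**Figure D2:**
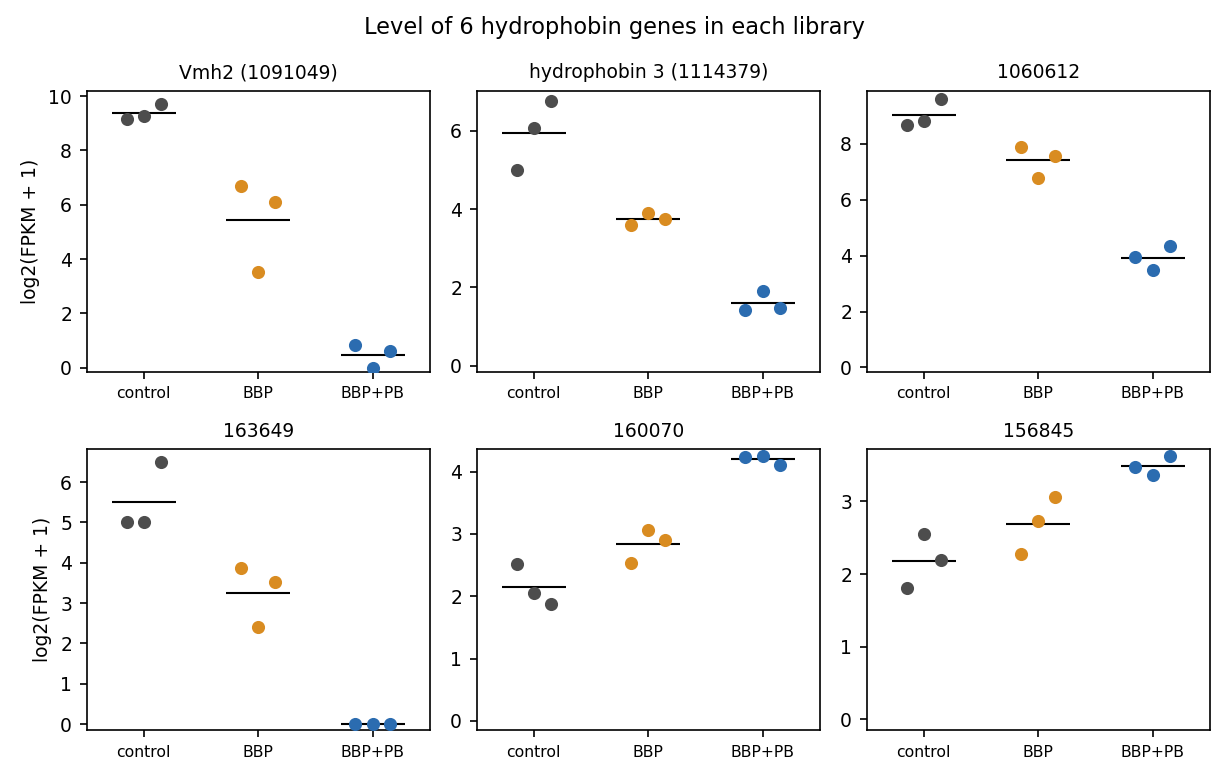
Level of each of the 6 members as log2(FPKM + 1) in every library, with the group mean as a line (3 libraries a group, own vertical scale in each panel). The first 4 genes go down from control to BBP to BBP with PB with no overlap between groups, and the last 2 are highest with PB.

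The other 2 genes with lower levels were expressed well below the leading pair in the controls. Hydrophobin 3 stood at 30.7, 66.4 and 107 FPKM in the controls, 11.0, 13.8 and 12.4 FPKM with BBP, and 1.68, 2.75 and 1.76 FPKM with BBP and PB. The controls were spread 3.49-fold, whereas the BBP libraries lay close together, and no group overlapped another. The gene fell with BBP (log2 change -2.32 ± 0.353, adjusted p = 0.0026 by edgeR), with a log2 change of -1.87 (adjusted p = 0.00304) without control replicate 3. Without BBP replicate 2 its log2 change was -2.40 (adjusted p = 0.00883 by edgeR). Its log2 difference between BBP with PB and BBP was -2.46 ± 0.385.

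PLEOSDRAFT_163649, a class I hydrophobin, stood at 31.0, 31.2 and 89.3 FPKM in the controls and at 13.5, 4.28 and 10.5 FPKM with BBP. It had 0 counts in all 3 libraries with PB, where 103 to 276 counts were found in the BBP libraries. A floor of 3 counts in each library gives 0.0752 CPM (counts scaled by library total) with PB, against 4.58 ± 2.29 CPM with BBP and 24.5 ± 16.3 CPM in the controls. The mean with BBP was 61.0 times this floor and the mean in the controls 326 times. The floor covers counting error with PB only, and these ratios of means do not cover the spread between libraries. Without control replicate 3 the second ratio was 201, and the lowest library over the highest floor gave 26.6 for BBP and 191 for the controls. The gene fell with BBP (log2 change -2.30 ± 0.524, adjusted p = 0.022 by edgeR), with a log2 change of -1.66 (adjusted p = 0.0356) without control replicate 3. Without BBP replicate 2 its log2 change was -1.94 (adjusted p = 0.0441 by edgeR). The call of this gene with BBP was lost without BBP replicate 3 (log2 change -2.39, adjusted p = 0.0539).

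The 2 members with higher levels were weakly expressed in the controls and with BBP. PLEOSDRAFT_160070, a class I hydrophobin, stood at 4.74, 3.16 and 2.67 FPKM in the controls, 4.79, 7.35 and 6.47 FPKM with BBP, and 17.8, 18.0 and 16.3 FPKM with BBP and PB. All 9 libraries were ordered by group in FPKM, although the highest control and the lowest BBP library were nearly level. The change with BBP did not pass the test (log2 change 0.89 ± 0.29, adjusted p = 0.0581 by edgeR). It did not pass without control replicate 3 (0.69, adjusted p = 0.131) or without BBP replicate 2 (0.75, adjusted p = 0.144). Of the 9 fits with 1 library left out, 1 passed, that without control replicate 1 (1.25, adjusted p = 0.0135). The change also passed with DESeq2 (0.91, adjusted p = 0.0184) and with limma on log2(FPKM + 1) (0.68, adjusted p = 0.0379). Its log2 difference between BBP with PB and BBP was 1.58 ± 0.283.

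PLEOSDRAFT_156845, the other class I gene of this kind, stood at 2.49, 4.84 and 3.57 FPKM in the controls, 3.83, 5.66 and 7.36 FPKM with BBP, and 10.1, 9.30 and 11.4 FPKM with BBP and PB. The controls and the BBP libraries overlapped, and the libraries with PB lay above both. The change with BBP did not pass the test (log2 change 0.76 ± 0.294, adjusted p = 0.101 by edgeR). Nor did it pass without control replicate 3 (0.71, adjusted p = 0.178) or without BBP replicate 2 (0.76, adjusted p = 0.164). Its log2 difference between BBP with PB and BBP was 0.97 ± 0.288.

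In the comparison of BBP with control, 0 of the 6 members rose and 4 fell. Over all 9399 genes tested, 10.1% rose and 8.33% fell, or 18.4% in either direction. The median log2 change of the 6 genes was -1.89, a value shaped by the choice of 4 lower and 2 higher genes. It was 0.05 over all 15 tested hydrophobins and -0.01 over all genes. In the 2 comparisons with PB, which share libraries and which the choice of members used, the counts follow from that choice: 4 lower and 2 higher in each. Beside them, 20.4% of all genes were called in BBP with PB against BBP (10.5% lower, 9.98% higher) and 41.1% in BBP with PB against control (21.2% lower, 19.9% higher). Groups that did not overlap were found for 4 lower members and 1 higher member in BBP against control, where 22.1% of all genes were lower and 12.3% higher in this way. The same held for 4 lower and 2 higher members in each comparison with PB, beside 29.7% and 15.6% of all genes against BBP and 40% and 17.1% against control. The 3 groups stood in the order control, BBP, BBP with PB with no overlap for 4 members going down and 1 going up. Over all tested genes 7.2% did so going down and 3.39% going up. The member going up was PLEOSDRAFT_160070, whose highest control (4.74 FPKM) and lowest BBP library (4.79 FPKM) were nearly level.

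Against the controls, the log2 difference in BBP with PB was -10.34 ± 1.02 for Vmh2, -4.99 ± 0.377 for PLEOSDRAFT_1060612 and -4.78 ± 0.408 for hydrophobin 3. It was 2.48 ± 0.295 for PLEOSDRAFT_160070 and 1.72 ± 0.295 for PLEOSDRAFT_156845. The order of the members differed in part between the controls and BBP with PB, as their choice by falling or rising with PB implies. In the controls the order by mean FPKM was Vmh2 and PLEOSDRAFT_1060612, which overlapped, then hydrophobin 3 and PLEOSDRAFT_163649, which overlapped, then PLEOSDRAFT_156845 and PLEOSDRAFT_160070, which overlapped. With BBP and PB the order was PLEOSDRAFT_160070, PLEOSDRAFT_1060612 and PLEOSDRAFT_156845, of which neighbours overlapped, then hydrophobin 3, then Vmh2, then PLEOSDRAFT_163649 at 0. PLEOSDRAFT_160070 moved from between rank 7523 and rank 8557 in the controls to between rank 4662 and rank 4937. Vmh2 made up 46.6% ± 3.90 of all hydrophobin FPKM in the controls, 14.3% ± 9.99 with BBP and 0.414% ± 0.388 with BBP and PB.

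Among the 9 other hydrophobins that were tested, 0 rose and 0 fell with BBP, and at an unadjusted p under 0.05 there were 2 of them (PLEOSDRAFT_154910 and PLEOSDRAFT_19935). DESeq2 called PLEOSDRAFT_19935 higher and limma on log2(FPKM + 1) called PLEOSDRAFT_154910 lower. In BBP with PB against BBP 0 of the 9 were higher and 3 lower, and in BBP with PB against control 1 was higher and 4 lower. The largest of these changes was in hydrophobin 15, PLEOSDRAFT_35044, which is not among the listed members. It stood at 17.8, 9.14 and 31.1 FPKM in the controls, 9.52, 43.0 and 3.33 FPKM with BBP, and 0.592, 0.538 and 0.757 FPKM with BBP and PB. Controls and BBP libraries overlapped, and the libraries with PB lay below both. Its log2 change was 0.05 ± 0.735 with BBP (adjusted p = 0.967) and -4.71 ± 0.95 with PB added to BBP (adjusted p = 0.00766 by edgeR). Without BBP replicate 2, the high library, these became -1.48 (adjusted p = 0.104) and -3.18 (adjusted p = 0.00685).

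PLEOSDRAFT_171316, a class I hydrophobin, stood at 12.9, 9.84 and 16.3 FPKM in the controls, 13.9, 37.3 and 7.81 FPKM with BBP, and 5.54, 4.58 and 4.28 FPKM with BBP and PB. PLEOSDRAFT_166938, a putative class I hydrophobin, stood at 34.5, 33.6 and 81.8 FPKM, then 36.5, 77.7 and 17.6 FPKM, then 10.5, 11.4 and 11.8 FPKM in the same order. In both genes BBP replicate 2 was high and BBP replicate 3 low, as in hydrophobin 15. They were lower in BBP with PB than in BBP by edgeR, at log2 changes of -1.92 ± 0.497 (adjusted p = 0.0233) and -1.86 ± 0.49 (adjusted p = 0.0251). Without BBP replicate 2 the values were -1.06 (adjusted p = 0.042) and -1.16 (adjusted p = 0.0626), so the call for PLEOSDRAFT_166938 was lost. With the replicate number as a block both calls were lost (adjusted p = 0.0554 and 0.0561), and they were also lost without any 1 of the libraries with PB. Against the controls, PLEOSDRAFT_166938 (-1.92 ± 0.491), PLEOSDRAFT_154910 (-1.01 ± 0.23) and PLEOSDRAFT_172202 (-0.85 ± 0.203) were lower with BBP and PB and PLEOSDRAFT_19935 (0.93 ± 0.237) was higher, all 4 past the test (adjusted p from 0.00638 to 0.0112 by edgeR). PLEOSDRAFT_35044 was the other gene called lower there (-4.66 ± 0.949, adjusted p = 0.00366).

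**Figure D3:**
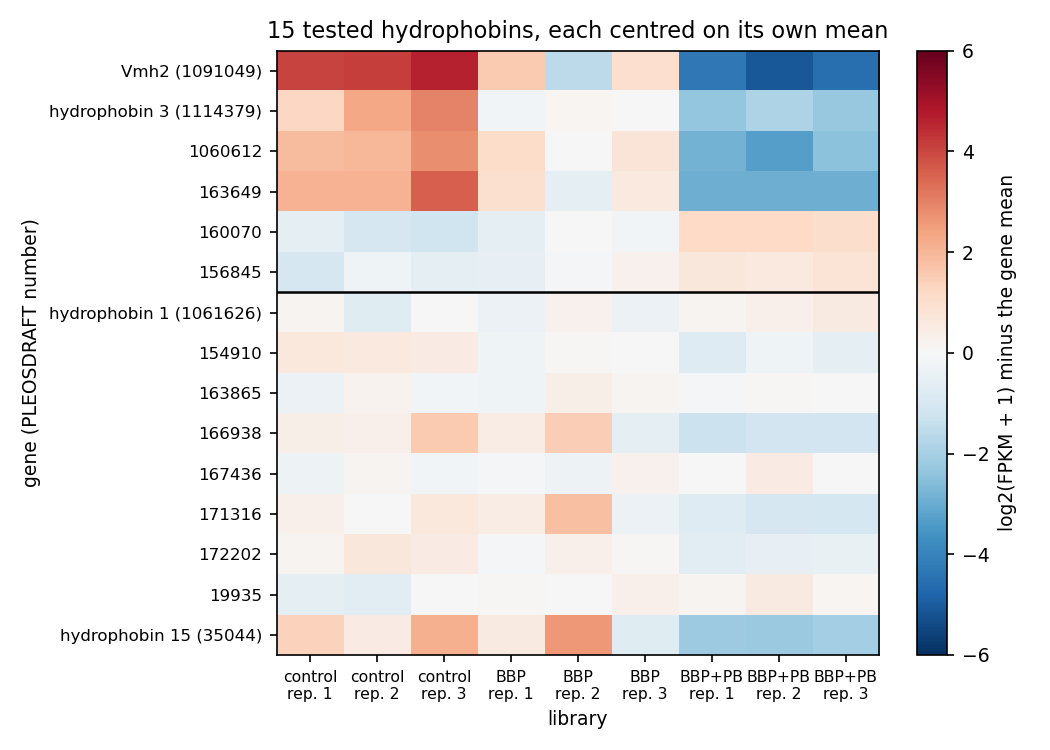
The 15 tested hydrophobins (rows, the 6 members above the line) in the 9 libraries (columns), as log2(FPKM + 1) minus the mean of each gene. BBP replicate 2 is lower than the other BBP libraries for Vmh2, PLEOSDRAFT_1060612 and PLEOSDRAFT_163649 and higher for hydrophobin 15, PLEOSDRAFT_171316 and PLEOSDRAFT_166938.

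BBP replicate 2 was low for some hydrophobins and high for others. Within BBP the highest library was 9.71 times the lowest for Vmh2 and 3.15 times for PLEOSDRAFT_163649, with replicate 2 lowest. The same ratio was 12.9 for hydrophobin 15, 4.77 for PLEOSDRAFT_171316 and 4.42 for PLEOSDRAFT_166938, with replicate 2 highest. Of the 15 tested hydrophobins, replicate 2 was the highest BBP library for 9 and the lowest for 5, and over all tested genes it was highest for 39.8% and lowest for 38.8%. No test was made of this.

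**Figure D4:**
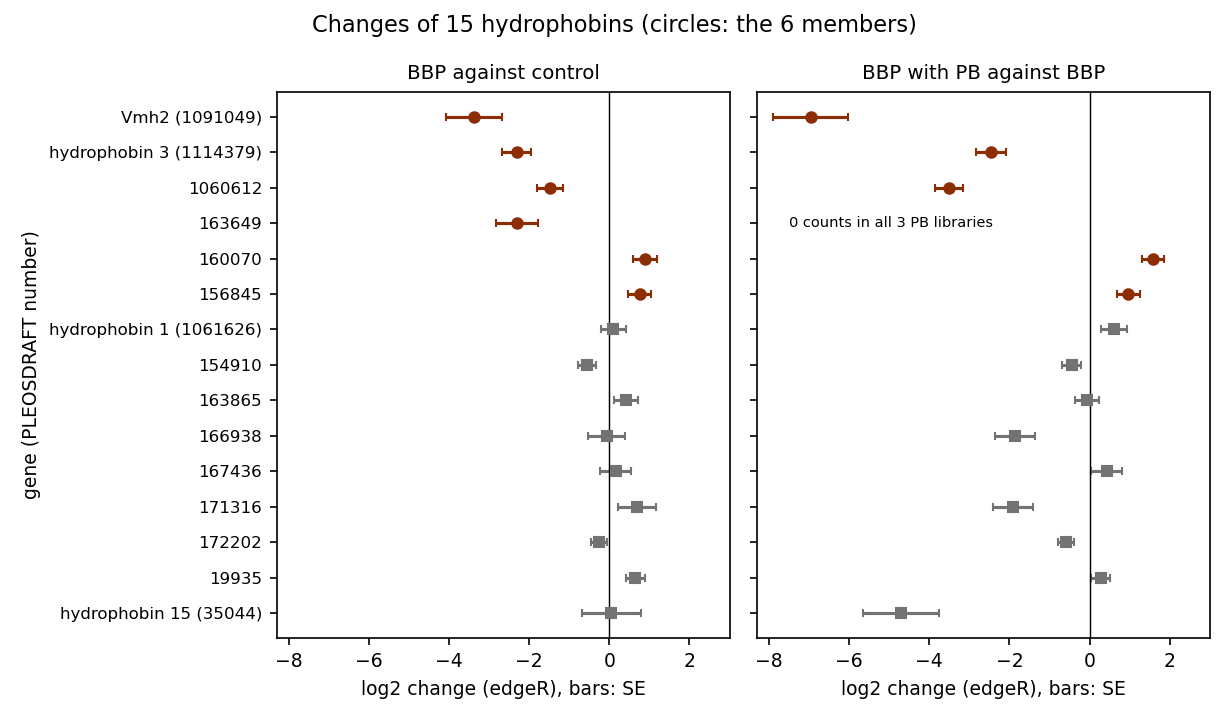
Log2 change ± SE of the 15 tested hydrophobins for BBP against control (left) and BBP with PB against BBP (right), with the 6 members as circles and the other 9 as squares. The 4 lower members lie left of 0 in both panels (PLEOSDRAFT_163649 has 0 counts with PB), and hydrophobin 15 lies near 0 at left and at -4.71 at right.

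The remaining 10 hydrophobins averaged under 1 FPKM over the 9 libraries and were not tested. Their highest level in any library was 2.31 FPKM and their highest count was 64. All 6 members passed this filter, Vmh2 and PLEOSDRAFT_163649 through the controls and BBP libraries alone.

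The positions of the genes were not used to choose them. Positions are as the deposited table gives them, on a genome build not given in the sources used here, while the gene descriptions name strain PC15. Vmh2 lies on the plus strand of scaffold KL198014.1 from 2203535 to 2204196, and PLEOSDRAFT_163649 lies next to it on the same strand from 2205505 to 2206099. The 2 genes are 1308 bases apart with 0 annotated genes between them. Hydrophobin 3 lies on the minus strand of KL198013.1 from 870346 to 870965. PLEOSDRAFT_1060612 lies on the plus strand of KL198004.1 from 1380212 to 1381090, PLEOSDRAFT_160070 on the plus strand of KL198010.1 from 830018 to 830478, and PLEOSDRAFT_156845 on the minus strand of KL198007.1 from 1571300 to 1571791. None of the 6 overlaps another annotated gene, and exon and untranslated region boundaries were not used here.

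The neighbouring pair shared its direction but not its proportion. Vmh2 had 21.3, 22.6 and 10.9 times the counts of PLEOSDRAFT_163649 in control replicates 1 to 3, and 8.74, 2.83 and 7.55 times in BBP replicates 1 to 3. The ratio was lower in all 3 BBP libraries than in the 3 controls. Whether reads of near-identical hydrophobin copies were split between genes cannot be seen from the table, so the values of all hydrophobins are uncertain to that extent. The next gene on each side was not called in either comparison. PLEOSDRAFT_1091050, 1648 bases beyond it, stood at 568 ± 113, 504 ± 44.9 and 549.97 ± 9.74 FPKM in the 3 groups (log2 change -0.06 ± 0.138 with BBP, adjusted p = 0.781 by edgeR, and 0.23 ± 0.138 with PB added, adjusted p = 0.268). PLEOSDRAFT_1060145, 1936 bases before Vmh2, had a log2 change of -0.81 ± 0.255 with BBP (adjusted p = 0.0516) and 0.27 ± 0.255 with PB added (adjusted p = 0.483).

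A second adjacent pair was formed by 2 hydrophobins outside the listed members. PLEOSDRAFT_171316 and hydrophobin 15 lie on the same strand of KL198013.1, 941 bases apart, and 39.7 kb from hydrophobin 3. Both were lower with PB added to BBP, as given above. The gene 230 bases beyond them, PLEOSDRAFT_1068339, stood at 80.1, 73.5 and 68.4 FPKM in the means of the 3 groups and was not called in BBP with PB against BBP (adjusted p = 0.992 by edgeR). In the whole table these were the only 2 pairs of hydrophobins with no annotated gene between them.

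**Figure D5:**
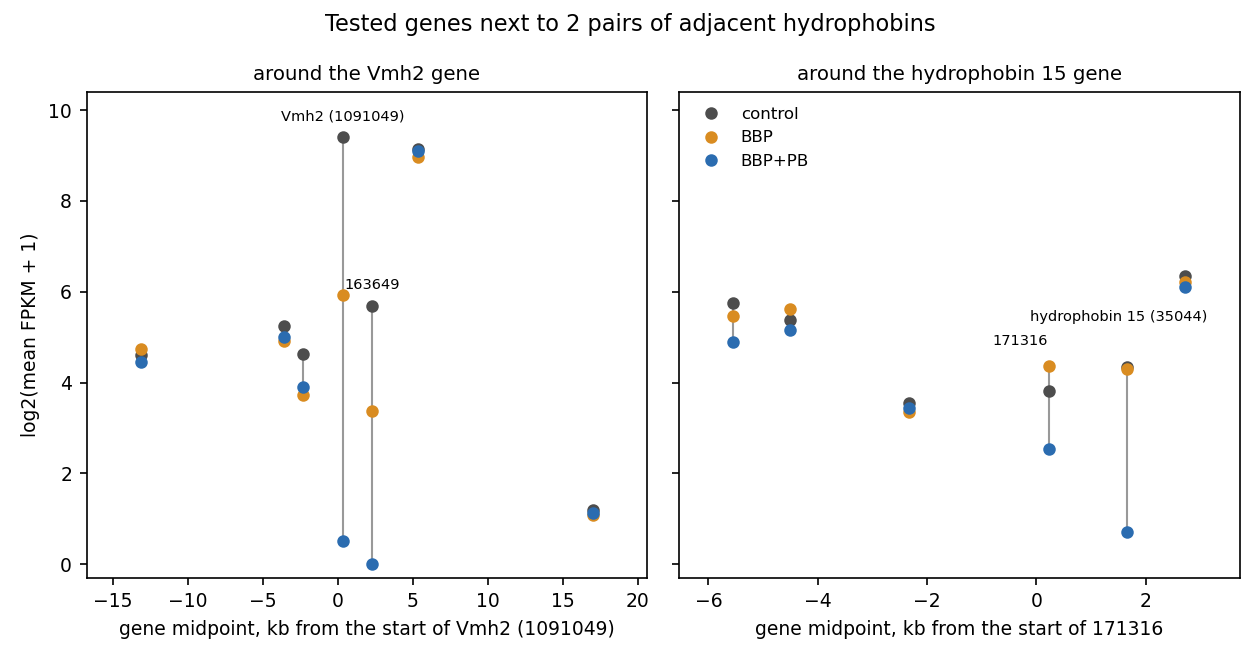
Group means as log2(mean FPKM + 1) of the tested genes around 2 pairs of adjacent hydrophobins, plotted by the distance of each gene's midpoint in kb from the start of Vmh2 (left) or of PLEOSDRAFT_171316 (right), with a grey line joining the 3 means of a gene. The named hydrophobins are low with PB, while PLEOSDRAFT_1091050, at right of the Vmh2 pair, has means of 504 to 568 FPKM in the 3 groups.

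Around the 6 members, up to 3 genes on each side gave 30 other genes, of which 28 were tested. Of these 4 rose and 2 fell with BBP, beside 10.1% and 8.33% of all genes, and 3 were higher and 4 lower with PB added to BBP, beside 9.98% and 10.5%. These numbers are near the shares over all genes. Called neighbours lay by lower members too, such as PLEOSDRAFT_1016848 by hydrophobin 3 (0.58 ± 0.179 with BBP, adjusted p = 0.049 by edgeR, and -1.22 ± 0.182 with PB added, adjusted p = 0.00164), and PLEOSDRAFT_20709 (-0.81 ± 0.213 with BBP, adjusted p = 0.0274) and PLEOSDRAFT_21891 (1.03 ± 0.193 with PB added, adjusted p = 0.00548) by PLEOSDRAFT_1060612. PLEOSDRAFT_1044739, 201 bases after PLEOSDRAFT_160070 on the same strand, went from 23.7 ± 1.59 to 31.5 ± 1.91 and 45.2 ± 4.60 FPKM (log2 change 0.50 ± 0.128 with BBP, adjusted p = 0.0242; 0.63 ± 0.127 with PB added, adjusted p = 0.00802). PLEOSDRAFT_1063873, 382 bases from PLEOSDRAFT_156845, went from 145 ± 29.8 to 387 ± 54.8 and 403 ± 31.0 FPKM (1.53 ± 0.156 with BBP, adjusted p = 0.000436; 0.16 ± 0.153 with PB added, adjusted p = 0.489). PLEOSDRAFT_1090041, the third gene before PLEOSDRAFT_160070, went the other way, from 85.9 ± 18.5 to 28.0 ± 17.8 and 2.87 ± 0.752 FPKM.

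The levels of the 4 lower genes ran together over the 9 libraries and ran opposite to those of PLEOSDRAFT_160070 and PLEOSDRAFT_156845. This largely restates that the members differ between the same groups. For the 6 pairs among the 4 lower genes, Pearson's r of log2(FPKM + 1) was 0.94 to 0.99. For the 8 pairs of a lower and a higher gene it was -0.99 to -0.82. Between PLEOSDRAFT_160070 and PLEOSDRAFT_156845 it was 0.86. With each group's mean removed, r was 0.86 between PLEOSDRAFT_1060612 and PLEOSDRAFT_163649, 0.80 between Vmh2 and PLEOSDRAFT_1060612, 0.76 between Vmh2 and PLEOSDRAFT_163649, and -0.07 between Vmh2 and hydrophobin 3. Hydrophobin 3 had r of 0.25 with PLEOSDRAFT_1060612 and 0.46 with PLEOSDRAFT_163649. Between PLEOSDRAFT_160070 and the 4 lower genes it was -0.79 to -0.60, and between PLEOSDRAFT_156845 and the same 4 genes -0.13 to 0.41. These are descriptions over 9 libraries that share their depth and scaling. PLEOSDRAFT_163649 was 0 in all libraries with PB, so with group means removed its r values rest on the control and BBP libraries alone.

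Among 382 genes with an informative description and a mean of at least 5 FPKM, the 3 most like each member were sought by the same r. The 18 pairs held 14 different genes, 2 of them members, with r from 0.907 to 0.998. These r include the libraries with PB, by which the members were chosen. With each group's mean removed, r of the same pairs ran from 0.19 to 0.98. Of the 14 genes, 9 were described as a glycoside hydrolase or carbohydrate esterase, as were 140 of the 382 candidates, and a link to such genes was not tested. Closest to Vmh2 was PLEOSDRAFT_173472, a glycoside hydrolase family 79 protein (r = 0.994), at 165 ± 27.3, 83.6 ± 28.8 and 26.6 ± 2.00 FPKM in control, BBP and BBP with PB. PLEOSDRAFT_1072937, of glycoside hydrolase family 16 (r = 0.988), went from 288 ± 74.0 to 57.1 ± 41.7 and 3.02 ± 0.333 FPKM. Closest to PLEOSDRAFT_163649 was PLEOSDRAFT_1034680, of glycoside hydrolase family 3 (r = 0.998). Closest to PLEOSDRAFT_160070 was PLEOSDRAFT_29354, of glycoside hydrolase family 23 (r = 0.986), at 54.7 ± 10.2, 87.4 ± 25.9 and 338 ± 11.9 FPKM. By Spearman's rho only 3 of the 18 pairs were among the 3 closest.

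The counts for other genes of the hyphal surface are to be read against the shares of all genes called, 10.1% higher and 8.33% lower with BBP and 9.98% and 10.5% with PB added. Chitin synthases make the chitin of the cell wall, and 14 genes were listed as such by description, ontology term or enzyme number. Of these 0 rose and 3 fell with BBP, while 1 was higher and 2 lower with PB added to BBP. Their median log2 change was -0.24 with BBP and -0.03 with PB added, against -0.01 over all genes in each. PLEOSDRAFT_186160 fell with BBP (log2 change -0.94 ± 0.264, adjusted p = 0.0347 by edgeR). With PB added, PLEOSDRAFT_1044239 was lower (-1.43 ± 0.254, adjusted p = 0.00418) and PLEOSDRAFT_28823 higher (1.49 ± 0.206, adjusted p = 0.00109). PLEOSDRAFT_1054937 went from 354 ± 86.2 to 201 ± 18.9 FPKM with BBP (log2 change -0.73 ± 0.205, adjusted p = 0.0353). Of 2 genes for the synthase of beta-1,3-glucan, the main wall glucan, neither was called with BBP, and PLEOSDRAFT_1091186 rose with PB added (0.64 ± 0.136, adjusted p = 0.00988). Of 32 tested chitinase and chitin deacetylase genes, whose enzymes cut or modify chitin, 4 rose and 3 fell with BBP, and 6 were higher and 7 lower with PB added, at medians of 0.01 and -0.12. With BBP the glycoside hydrolase family 18 gene PLEOSDRAFT_1111350 rose (1.29 ± 0.362, adjusted p = 0.035 by edgeR). PLEOSDRAFT_50812 of that family fell (-1.27 ± 0.382, adjusted p = 0.0452), and the groups overlapped in both genes. The chitin deacetylase gene PLEOSDRAFT_175606 (EC 3.5.1.41) went from 156 ± 28.6 to 105 ± 13.9 and 25.0 ± 1.53 FPKM (-0.46 ± 0.131, adjusted p = 0.0388, then -1.97 ± 0.136, adjusted p = 5.3e-05), whereas PLEOSDRAFT_1113735, of the same carbohydrate esterase family 4, was higher with PB added (1.87 ± 0.196, adjusted p = 0.000246).

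Of 12 genes for expansin-like, lectin and pore-forming proteins, which are small secreted or surface proteins, 0 rose and 4 fell with BBP, and 2 were higher and 3 lower with PB added, at medians of -0.17 and -0.21. The flammutoxin-like gene PLEOSDRAFT_168572, related to a pore-forming toxin of another mushroom, had means of 9.99, 3.01 and 1.07 FPKM in the 3 groups and was called lower at both steps (-1.63 ± 0.255, adjusted p = 0.00297, then -1.36 ± 0.272, adjusted p = 0.00733). The expansin-like gene PLEOSDRAFT_1045423 fell with BBP and was higher again with PB added (2.19 ± 0.362, adjusted p = 0.00289). Of 2 other expansin-like genes, PLEOSDRAFT_1107937 was higher with PB added (1.94 ± 0.407, adjusted p = 0.00938) and PLEOSDRAFT_1103266 lower (-1.69 ± 0.347, adjusted p = 0.00835). Of 8 tested mating type and pheromone receptor genes 0 rose and 1, PLEOSDRAFT_1011960, fell with BBP (-1.14 ± 0.341, adjusted p = 0.0439), and with PB added to BBP 0 were called by edgeR (1 at an unadjusted p under 0.05) and 0 by DESeq2 or limma. Their medians were 0.29 and 0.34.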

How the data were processed

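Poly(A) RNA-seq libraries of mycelium were deposited by the authors as 1 table with a raw read count and an FPKM value for each gene and library. The submitters' processing notes name fastp, HISAT2 and StringTie, with versions, genome build and strand setting not given in the sources used here. Every per-sample column belonged to a sample of the series. The authors' FPKM values were used as deposited for levels, and their counts for tests.

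Genes with a mean of at least 1 FPKM over 9 libraries were tested (9399 of 10682). The main test was edgeR 4.0.16's quasi-likelihood test (glmQLFit, glmQLFTest, TMM scaling, R 4.3.3) on the counts of all 3 groups, with no covariate and Benjamini-Hochberg adjustment over all tested genes, and an adjusted p below 0.05 was called. Values with ± are SD for levels (n = 3) and SE for log2 changes. That SE was worked back from the edgeR test, as the absolute log2 change over the square root of the F statistic. It is therefore approximate, most of all where counts are near 0. The fits were tested on simulated data. The alternatives were DESeq2 1.42.0, limma 3.58.1 on log2(FPKM + 1 or 0.1), library size or RLE scaling, other filters, only the groups compared, a replicate block and leaving out each library. For PLEOSDRAFT_163649 a floor of 3 counts per library replaced 0 counts.

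The 6 members and the gene lists were chosen with earlier results of these data known. Named genes were the members, other hydrophobins called in any comparison, up to 2 called genes with the largest log2 change per list and comparison (or the most expressed where none was called), and the 3 genes most like each member. The neighbouring genes were named outside this rule, after their values were seen. A planned transcription factor list matched 0 genes. All libraries carry the same batch label. No sequence is shown, since none was used here. The floor covers counting error only, whereas the SD and SE values include the spread between libraries.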

Additional observations from a re-analysis of the deposited data

How the results depend on the processing

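The number of hydrophobins called stayed within 1.5 times the reported one under every alternative run. In BBP against control it was 4, with 3 to 5 when 1 library was left out and 6 with DESeq2 or limma on log2(FPKM + 1). In BBP with PB against BBP it was 9, with 6 to 9 when 1 library was left out, and in BBP with PB against control 11, with 11 to 12. Of these 9 and 11 genes, 6 are the members, chosen for that difference, which largely fixes both counts. No called change of a hydrophobin turned its sign. Among changes that were not called, the sign of hydrophobin 15 in BBP against control (0.05) turned to -0.0502 with library size, -0.54 and -0.62 with limma on log2(FPKM + 1) and log2(FPKM + 0.1) and -0.38 with the block, and ranged from -1.48 to 0.55 when 1 library was left out. The sign also turned when 1 library was left out for PLEOSDRAFT_171316, PLEOSDRAFT_166938, PLEOSDRAFT_1061626 and PLEOSDRAFT_167436 in BBP against control (-0.16 to 1.07, -0.77 to 0.42, -0.17 to 0.41 and -0.14 to 0.37) and for PLEOSDRAFT_163865 with PB added to BBP (-0.25 to 0.13). For PLEOSDRAFT_163649, leaving out libraries was chosen after seeing the data. Its group mean over the floor then ran from 47.5 to 77.5 for BBP and from 201 to 389 for the controls. Over all genes, 1730 were called in BBP against control (947 higher, 783 lower), 879 when only the 2 groups compared were fitted, and 967 to 1854 when 1 library was left out, lowest without control replicate 2. In BBP with PB against BBP the count was 1921 (938 higher, 983 lower), and 1051 to 2461 when 1 library was left out. In BBP with PB against control it was 3865, and 2877 to 4169. Scaling by library size alone moved the median of all genes by -0.108, -0.11 and -0.219 (log2) in the 3 comparisons, and the split of calls to 684 higher and 1108 lower, 621 and 1327, and 1196 and 3183. Limma on log2(FPKM + 1) gave 657 higher and 1050 lower in BBP against control. With the replicate number as a block, 4, 7 and 11 hydrophobins and 1396, 1568 and 3612 genes were called in the 3 comparisons. Deviations of same-numbered libraries correlated at -0.152 to 0.206, and those of differently numbered libraries at -0.243 to 0.155. With 3 libraries a group, these ranges cannot settle whether the numbers pair the libraries. Depth limited Vmh2 and PLEOSDRAFT_163649 with PB, where counts were 0 to 19.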
